A study of Mus musculus with 11 samples.

Results

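Quiescent lymphocytes are held in a resting state by a set of transcription factors and growth-restraining proteins, and 10 genes that encode such factors were read in germinal center (GC) B cells of the light zone (LZ) and in memory B cells (MBCs). The genes were chosen by name from families known for quiescence, with earlier results of these data known, and were found in the expression table by the Ensembl identifier of the mouse symbol. They were the FOXO genes Foxo1 and Foxo3, the Krüppel-like factor genes Klf2, Klf3, Klf6 and Klf13, the BTG/TOB genes Btg1, Btg2 and Tob1, and Tsc22d3, which encodes the glucocorticoid-induced leucine zipper protein GILZ. These 10 genes, of 48795 in the table, all had values in every library and all passed the filter on low values in the 3 comparisons.

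RNA-seq was performed on sorted splenic B cells of female mice aged 8 to 12 weeks, 10 days after an intravenous injection of sheep red blood cells. LZ B cells (B220+ CD138neg IgDneg CD38neg Fas+ CD86high CXCR4low) came from 4 Myc WT mice, called mouse 1 to 4, and from 4 Myc V394D mice, called mouse 5 to 8. MBCs (B220+ CD138neg IgDneg CD38+ CD273+) came from Myc WT mice 1, 3 and 4, so these 3 mice gave both cell types, and no MBCs of Myc V394D mice were analysed here. In the Myc V394D strain an aspartic acid replaces a valine of MYC at the endogenous Myc locus in every cell of the animal, and this change prevents MYC from pairing with the zinc-finger protein MIZ1 while it still pairs with MAX. The names of all 4 Myc V394D mice begin with 1 code and those of the Myc WT mice with others, so genotype and whatever these codes stand for cannot be told apart. Values are TPM, a share of the RNA of the library per unit of transcript length, which allows levels to be compared between genes.

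FOXO proteins are switched off by PI3K and AKT, which keep them out of the nucleus when antigen receptor or co-stimulatory signals arrive, and in the nucleus they turn on genes of cell cycle arrest and of homing. KLF2 keeps lymphocytes resting and drives genes of exit from and entry to lymphoid tissue, such as that of the sphingosine-phosphate receptor S1PR1. BTG and TOB proteins recruit the CCR4-NOT deadenylase complex to messenger RNA and restrain proliferation, and GILZ is an inducible inhibitor of inflammatory and growth signalling.

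As sums, the markers followed the labels of the libraries. The cells were sorted on the products of Fas, Cd86, Cd38 and Pdcd1lg2, so these genes were left out of the check. The summed level of the other 7 GC B cell markers was 1211 to 1741 TPM in LZ libraries against 455 to 653 TPM in MBC libraries, and that of the other 6 MBC markers was 348 to 426 TPM in MBCs against 10.2 to 46.5 TPM in LZ libraries. With the sorting genes included, 6 of 8 MBC markers were higher in MBCs than in Myc WT LZ by mean log2(TPM + 1). The 2 lower were Nt5e, at 6.80 to 11.5 against 10.8 to 13.4 TPM, and Zbtb32, at 0.00 to 6.56 against 0.70 to 2.10 TPM. All 9 GC B cell markers were lower in MBCs, but Cd83 overlapped, at 155 to 307 TPM in MBCs and 126 to 274 TPM in LZ libraries. Ribosomal RNA genes took 35.7 to 44.5% of the total in Myc WT LZ, 44.1 to 61.3% in Myc V394D LZ and 36.1 to 37.5% in MBCs, which leaves less of the fixed total for all other genes. The MBC library of mouse 3 stood apart by its globin RNA, with 6713 TPM summed over 6 erythroid markers against 7.60 and 53.4 TPM in the other MBC libraries. It also had the fewest genes above 0 of the 11 libraries, 11527, against 12983 and 16040 in the other MBC libraries. The Myc V394D library of mouse 8 had the largest ribosomal share, 61.3%. The lowest value of the MBC group fell in the library of mouse 3 for 9 of the 10 genes, and the lowest of the Myc V394D group in that of mouse 8 for 8 of the 10.

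Comparisons were made with limma on log2(TPM + 1), two-sided, with Benjamini-Hochberg adjustment over all genes tested, and called at an adjusted p under 0.05. Klf2, Klf3 and Btg1 were higher in MBCs than in LZ B cells of both genotypes, while none of the 10 genes was called between Myc V394D and Myc WT LZ B cells. The promoters of Klf2 and Klf3, the genes with the largest differences, are shown as the RefSeq sequence (GRCm38.p6, plus strand) that lies before the first annotated base of the gene. Klf2 lies on chromosome 8 at 72319033 to 72321656 and Klf3 on chromosome 5 at 64803388 to 64832901. Capitals mark the MEF2 consensus in Klf2, at 72318944 to 72318953, and the KLF letters CACCC or their reverse complement in Klf3.

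Klf2 promoter, chr8:72318812-72319032: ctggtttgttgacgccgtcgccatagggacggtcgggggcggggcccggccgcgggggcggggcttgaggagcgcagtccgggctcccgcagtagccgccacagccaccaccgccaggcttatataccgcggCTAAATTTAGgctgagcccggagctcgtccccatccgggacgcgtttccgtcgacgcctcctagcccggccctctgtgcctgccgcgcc

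Klf3 promoter, chr5:64803271-64803387: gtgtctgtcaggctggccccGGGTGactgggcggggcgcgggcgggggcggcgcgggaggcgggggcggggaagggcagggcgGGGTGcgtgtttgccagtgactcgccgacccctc

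The MEF2 consensus, searched after the Klf2 window had been read, was present in 0.557% of 32851 RefSeq promoter windows of 250 bases before to 50 after the start, and in 1 of the 12 windows of the 10 genes, that of Klf2. The KLF letters CACCC, on either strand, occurred in 57.5% of all windows and in 6 of the 12, those of Klf2, Klf3, Klf13, Tob1 and Tsc22d3. The Klf2 match lay in the part of its window that is not printed. The E-box CACGTG, which MYC and MAX recognise, occurred in 7.15% of all windows and among the 10 genes in that of Klf6, and the FOXO letters GTAAACA in 3.65% and in that of Btg1, each in 1 of the 12 windows. A match in such a window is a description of its letters and no evidence of binding.

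The level of each gene differed widely within the same cells. In Myc WT LZ B cells the order of mean TPM was Btg1, Foxo1, Btg2, Klf6, Klf13, Tob1, Foxo3, Tsc22d3, Klf2 and Klf3. The ranges of Btg1 and Foxo1, of Foxo1 and Btg2, of Btg2 and Klf6 and of Klf13 and Tob1 did not overlap, and the other neighbours overlapped. In Myc V394D LZ B cells Btg1 stood first without overlap, and each later pair of neighbours, in the order Foxo1, Klf13, Btg2, Klf6, Tob1, Tsc22d3, Foxo3, Klf2 and Klf3, overlapped. In MBCs Btg1 again stood first without overlap, but Klf2 and Klf3, last in both LZ groups, came next. Their means were 55.8 and 55.6 TPM, close to those of Foxo1, Btg2, Klf13 and Klf6 (46.3 to 54.4 TPM), with Tob1, Tsc22d3 and Foxo3 as the lowest, and the ranges of all neighbours from Klf2 on overlapped.

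**Figure D1:**
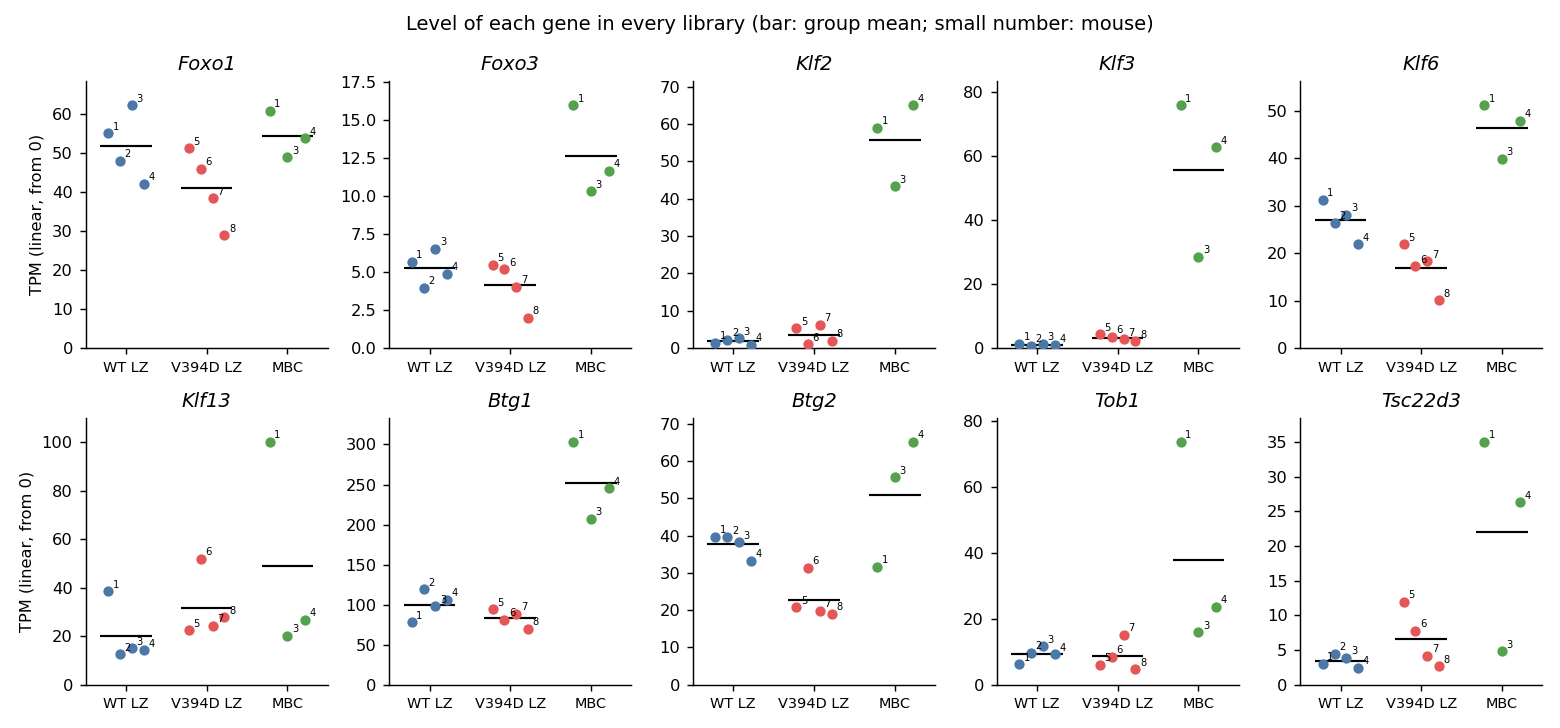
Level of the 10 genes in TPM on a linear axis from 0, with a point for each library numbered by mouse, a bar for the group mean, and the groups Myc WT LZ (n = 4), Myc V394D LZ (n = 4) and MBC (n = 3). Klf2 and Klf3 lie near 0 in the 8 LZ libraries and between 28.5 and 75.8 TPM in the 3 MBC libraries, whereas Foxo1 spans a similar range in all groups.

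Foxo1, the main FOXO gene of B cells, was read at 55.0, 48.0, 62.1 and 42.0 TPM in LZ B cells of Myc WT mice 1 to 4, at 51.1, 45.9, 38.4 and 28.9 TPM in Myc V394D mice 5 to 8, and at 60.7, 48.8 and 53.7 TPM in MBCs of mice 1, 3 and 4. The 3 groups overlapped throughout. The difference between MBCs and Myc WT LZ was 0.08 ± 0.26 on the log2(TPM + 1) scale (SE, adjusted p = 0.879), with a 95% interval of -0.51 to 0.67, and its sign changed under other scalings. From Myc V394D LZ, MBCs differed by 0.42 ± 0.36 (adjusted p = 0.563).

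Foxo3, a second FOXO gene, was at 5.65, 3.98, 6.52 and 4.87 TPM in Myc WT LZ, at 5.46, 5.18, 4.02 and 2.01 TPM in Myc V394D LZ and at 15.9, 10.3 and 11.7 TPM in MBCs. Every MBC library lay above every LZ library. The differences of 1.12 ± 0.42 against Myc WT LZ and 1.44 ± 0.61 against Myc V394D LZ had adjusted p = 0.127 and 0.224 in limma and were not called. Of the rest of the family, Foxo4 passed the filter and was not called in any comparison, and Foxo6 did not pass it.

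Klf2 was low in LZ B cells, at 1.35, 2.30, 2.59 and 0.91 TPM in Myc WT mice and 5.29, 0.98, 6.25 and 1.99 TPM in Myc V394D mice, and reached 59.0, 43.3 and 65.0 TPM in MBCs. The LZ groups overlapped with each other and neither reached the MBCs. Klf2 was 31.2-fold higher by mean TPM in MBCs than in Myc WT LZ, a difference of 4.37 ± 0.43 (adjusted p = 0.00159), and 15.4-fold higher than in Myc V394D LZ, a difference of 3.79 ± 0.61 (adjusted p = 0.00667).

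Klf3, which encodes a KLF repressor that recruits CtBP, was at 1.34, 0.80, 1.40 and 0.83 TPM in Myc WT LZ, at 4.32, 3.62, 2.72 and 2.10 TPM in Myc V394D LZ, and at 75.8, 28.5 and 62.6 TPM in MBCs. The 3 groups did not overlap, and Myc V394D LZ lay between Myc WT LZ and MBCs. The difference of MBCs was 4.66 ± 0.48 against Myc WT LZ (adjusted p = 0.00181) and 3.67 ± 0.56 against Myc V394D LZ (adjusted p = 0.0053). Between the LZ groups the difference was 0.98 ± 0.39 with a 95% interval of 0.13 to 1.84, and it did not pass the adjustment (adjusted p = 0.238).

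Klf6, a growth-restraining KLF that is also induced early on activation, was at 31.3, 26.4, 28.0 and 21.9 TPM in Myc WT LZ, at 21.9, 17.2, 18.3 and 10.0 TPM in Myc V394D LZ and at 51.1, 39.9 and 47.9 TPM in MBCs. The Myc V394D values all lay below the Myc WT values, the nearest by 21.88 against 21.89 TPM, and all MBC values lay above both. The difference was -0.68 ± 0.28 between genotypes (adjusted p = 0.25), 0.77 ± 0.28 for MBCs against Myc WT LZ (adjusted p = 0.123) and 1.45 ± 0.43 against Myc V394D LZ (adjusted p = 0.0908), none of them called.

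Klf13, a KLF expressed through the B and T lineages, varied widely between mice. It was at 38.5, 12.7, 15.1 and 14.2 TPM in Myc WT LZ, at 22.4, 51.9, 24.4 and 27.8 TPM in Myc V394D LZ and at 100.2, 20.2 and 26.9 TPM in MBCs. Mouse 1 had the highest value of the Myc WT LZ group and of the MBC group, and mouse 6 that of the Myc V394D group. The groups overlapped and no difference was called, with 1.04 ± 0.61 for MBCs against Myc WT LZ (adjusted p = 0.31) and 0.34 ± 0.57 against Myc V394D LZ (adjusted p = 0.788). Without the MBC library of mouse 1 these were 0.35 (adjusted p = 0.65) and -0.34 (adjusted p = 0.735).

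Of the other 13 KLF genes, 7 passed the filter for MBCs against Myc WT LZ and 6 for MBCs against Myc V394D LZ, and limma called 0 in either. At an unadjusted p under 0.05 there were 1 higher and 1 lower in the first comparison, where 11.3% of all genes were higher and 15.8% lower, and 1 higher in the second, where 12.3% of all genes were.

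Btg1, an antiproliferative gene whose protein binds the deadenylase complex, had the highest level of the 10 genes in every group. It was at 77.9, 119, 98.1 and 106 TPM in Myc WT LZ, at 94.2, 80.8, 88.9 and 69.9 TPM in Myc V394D LZ and at 303, 207 and 245 TPM in MBCs. The LZ groups overlapped, and every MBC library lay above all LZ libraries. The difference of MBCs was 1.32 ± 0.24 against Myc WT LZ (adjusted p = 0.0135) and 1.57 ± 0.28 against Myc V394D LZ (adjusted p = 0.0125). With the mouse as a replicate block, in a fit without Myc WT LZ mouse 2, the first was 1.41 and was not called (adjusted p = 0.0808). The same libraries without the block also gave 1.41, and there it was called (adjusted p = 0.0389). MBCs were above LZ B cells in each of the 3 mice with both libraries. Without limma's trend neither difference of MBCs was called, with adjusted p = 0.0529 and 0.102.

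Btg2, a p53-responsive relative of Btg1, was at 39.6, 39.5, 38.2 and 33.2 TPM in Myc WT LZ, at 20.8, 31.3, 19.8 and 19.0 TPM in Myc V394D LZ and at 31.6, 55.7 and 65.1 TPM in MBCs. All Myc V394D values lay below all Myc WT and MBC values, and the MBC range enclosed the Myc WT range. The genotype difference of -0.73 ± 0.24 had a 95% interval of -1.24 to -0.21 and adjusted p = 0.169. For MBCs it was 0.36 ± 0.32 against Myc WT LZ (adjusted p = 0.5) and 1.09 ± 0.42 against Myc V394D LZ (adjusted p = 0.186).

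Tob1, the transducer of ERBB2 that belongs to the same family, was at 6.27, 9.71, 11.7 and 9.23 TPM in Myc WT LZ, at 6.12, 8.55, 15.1 and 4.71 TPM in Myc V394D LZ and at 73.7, 15.9 and 23.7 TPM in MBCs. The MBC values lay above all LZ values, the nearest by 15.94 against 15.14 TPM, and mouse 1 lay far above the other MBC libraries (mean 37.8 ± 31.3 TPM, SD, n = 3). The difference of 1.65 ± 0.54 against Myc WT LZ (adjusted p = 0.0883) and of 1.82 ± 0.63 against Myc V394D LZ (adjusted p = 0.141) was not called. Without the MBC library of mouse 1 these were 1.03 (adjusted p = 0.14) and 1.202 (adjusted p = 0.334), and without that of mouse 3 they were 2.10, which was called (adjusted p = 0.0314), and 2.27 (adjusted p = 0.0756). Btg3 and Tob2, the other family members that passed the filter, were not called in any comparison, and Btg4 was at 0 in all libraries.

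Tsc22d3, on chromosome X at 140539528 to 140600659, was at 3.01, 4.43, 3.91 and 2.46 TPM in Myc WT LZ, at 12.0, 7.82, 4.19 and 2.68 TPM in Myc V394D LZ and at 34.98, 4.80 and 26.3 TPM in MBCs. The MBC library of mouse 3 lay just above the Myc WT LZ range and within the Myc V394D range, and the other MBC libraries lay above all LZ libraries. The difference against Myc WT LZ was 2.03 ± 0.66 (adjusted p = 0.0895) and was not called. It was 2.84 without the MBC library of mouse 3, where it was called (adjusted p = 0.00521), and 1.52 without that of mouse 1 (adjusted p = 0.171). For MBCs against Myc V394D LZ it was 1.39 ± 0.76 (adjusted p = 0.349), with 2.20 without MBC mouse 3 and 0.88 without MBC mouse 1, neither called. Of 6 tested genes of the glucocorticoid response, a list that includes the receptor gene Nr3c1 and Fkbp5, limma called 0 in each of the 3 comparisons, with 0 also at an unadjusted p under 0.05. The shares of all genes, by direction and comparison, were 0.00777% to 5.04% called and 1.24% to 15.8% at the unadjusted p. The other TSC22D genes were not called either.

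Over the 10 genes, 3 were called higher in MBCs than in Myc WT LZ and 0 lower, where 4.17% of 13245 genes tested were called higher and 5.04% lower. In 7 of the 10 the MBC libraries lay above all Myc WT LZ libraries, compared with 11.8% of all genes, and in 0 below, compared with 14.4%. The median difference of the 10 was 1.22 against -0.14 for all genes tested. These counts describe genes that were chosen with earlier results known. The count of called genes was 5 without the MBC library of mouse 3, when Tob1 and Tsc22d3 joined and the share of all genes called higher was 6.78%. With the replicate block, in a fit of mice 1, 3 and 4 alone, the count was 2, and 0.989% of all genes were called higher. The same libraries without the block gave a count of 3, with 1.56% of all genes called higher.

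Against Myc V394D LZ, which shares the MBC libraries with the comparison above, the counts were likewise 3 called higher and 0 lower, where 2.52% of 13131 genes were called higher and 1.36% lower. In 7 of the 10 the MBC libraries lay above all Myc V394D libraries (12.5% of all genes) and in 0 below (5.99%). The median of the 10 was 1.44 against 0.16 for all genes. With all 3 groups in 1 fit, which share an estimate of spread, 6 were called, with Klf6, Btg2 and Tob1 added, and the share of all genes called higher was 7.73%. When TPM were rescaled by median ratios, 3 of the 10 were called higher, and over all genes 230 were called higher and 302 lower, against 331 and 178 without rescaling. For 7 genes without overlap the exact permutation test, two-sided, gave p = 0.0286 against Myc WT LZ, which is the smallest that 35 groupings allow. In the comparison with Myc V394D LZ it gave this p for 5 of the 7, and 0.0571 for Btg2 and Tob1. These p-values, from 30 such tests, are not adjusted.

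Between genotypes, 0 of the 10 genes were called by limma in either direction, where 0.00777% of 12869 genes were called higher in Myc V394D LZ and 0.0389% lower. Without Myc V394D mouse 5 the calls over all genes went from 1 higher and 5 lower to 12 and 242, and with array weights to 10 and 237, still with 0 of the 10 genes among them. At an unadjusted p under 0.05 Klf3 was higher and Klf6 and Btg2 were lower, where 1.24% of all genes were higher and 15.7% lower, so the count of 2 lower is near that of all genes. These 3 were also the genes whose groups did not overlap, with an exact permutation p of 0.0286, the smallest that 70 groupings allow. Of all genes, 0.816% lay higher and 9.16% lower without overlap. The median of all genes was -0.31 and that of the 10 genes -0.21, so relative to all genes Klf3 differed by 1.29, Klf6 by -0.37 and Btg2 by -0.42. Relative to all genes the others were Klf13 at 1.00, Tsc22d3 at 0.95, Klf2 at 0.89, Tob1 at 0.14, Btg1 at 0.05, Foxo3 at -0.01 and Foxo1 at -0.04. When TPM were rescaled by median ratios, the median of all genes was -0.01, Klf3 was at 1.19, Klf13 at 1.02 and Tsc22d3 at 0.91 with an unadjusted p under 0.05, Btg2 was at -0.39 and Klf6 at -0.35, neither with an unadjusted p under 0.05, and none was called. With this rescaling 5.52% of all genes were higher at an unadjusted p under 0.05 and 6.3% lower, 709 and 809 genes against 160 and 2020 without it. Markers of other cells were read beside these differences. The 6 erythroid markers summed to 343, 410, 352 and 71.9 TPM in Myc V394D mice 5 to 8 and to 116 to 226 TPM in Myc WT LZ, so that 3 of the 4 Myc V394D libraries lay above the Myc WT range. The 6 plasma cell markers summed to 221, 210, 197 and 134 TPM in Myc V394D mice 5 to 8 and to 229 to 381 TPM in Myc WT LZ, without overlap. Of their 4 tested genes 4 lay below 0, with a median difference of -0.36, 1 was lower at an unadjusted p under 0.05, Jchain, and limma called 0. The part of these markers in the differences of the 10 genes was not tested. The ribosomal share moved with genotype as well, and its part in these differences was not tested beyond the fits in which those genes were removed.

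**Figure D2:**
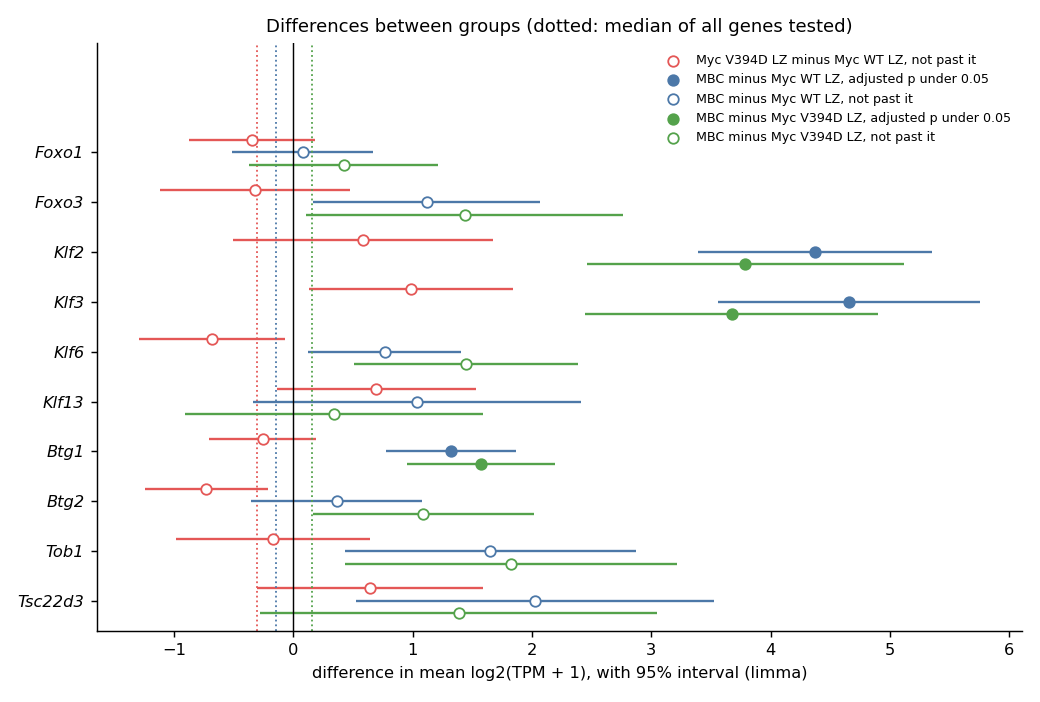
Difference in mean log2(TPM + 1) of the 10 genes with its 95% interval from limma, for the 3 comparisons in 3 colors, with filled points for an adjusted p under 0.05 and dotted lines for the median of all genes tested. The points of Klf2, Klf3 and Btg1 are filled in both comparisons with MBCs, and none is filled between genotypes.

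The genes that FOXO proteins and KLF2 are known to control were read from a list of 20, of which 19 passed the filter in each comparison with MBCs. Against Myc WT LZ, 6 were called higher and 2 lower, with a median of 1.00, where 4.17% of all genes were called higher and 5.04% lower, with a median of -0.14. Against Myc V394D LZ 5 were called higher and 1 lower, with a median of 1.06, where the shares of all genes were 2.52% and 1.36% and their median was 0.16. Genes that averaged under 1 TPM in the LZ group and passed the filter through MBCs alone are among those called higher, so these counts and medians are a description. Trafficking genes were among those called higher. S1pr1, whose protein guides the exit of lymphocytes from tissue, was at 3.72, 2.84, 2.44 and 1.52 TPM in Myc WT LZ, at 0.92, 0.11, 0.44 and 1.97 TPM in Myc V394D LZ and at 58.0, 71.8 and 77.9 TPM in MBCs. It lay far above the LZ range in each of the 3 MBC libraries, by 4.30 ± 0.39 against Myc WT LZ (adjusted p = 0.00128). Itgb7, which encodes the integrin chain beta 7, differed by 3.82 ± 0.41 (adjusted p = 0.00212). The chemokine receptor gene Ccr7, which passed the filter through MBCs alone, was at 0.31 to 1.37 TPM in Myc WT LZ, 0.00 to 1.31 TPM in Myc V394D LZ and 18.8 to 33.0 TPM in MBCs.

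Cdkn1b, which encodes the cell cycle inhibitor p27, was 2.13 ± 0.55 higher in MBCs than in Myc WT LZ (adjusted p = 0.0457) and was not called against Myc V394D LZ (1.47, adjusted p = 0.264). Txnip, a redox regulator, was higher by 1.81 and 2.06 (adjusted p = 0.0462 and 0.0482). In MBCs of mice 1, 3 and 4, Cdkn1b was at 9.13, 44.6 and 27.8 TPM and Txnip at 107, 477 and 178 TPM. Both were highest in the globin-rich library of mouse 3. S1pr1 and Ccr7 were highest in that of mouse 4 and Itgb7 in that of mouse 1. The part of the mouse 3 library in these calls was not tested. The genes called lower were Bcl6, the GC master regulator and a FOXO target in other settings, by -2.20 ± 0.32 and -2.16 ± 0.36 (adjusted p = 0.00594 and 0.00837), and the stress gene Gadd45a, by -1.93 against Myc WT LZ alone (adjusted p = 0.0338 and 0.38). Between genotypes 0 of 18 tested targets were called by limma, with S1pr1 alone lower at an unadjusted p under 0.05 (-1.03, adjusted p = 0.284), against 15.7% of all genes. At that p 0 were higher, against 1.24% of all genes. Cdkn1b was at 5.34, 18.6, 5.33 and 5.87 TPM in Myc V394D mice 5 to 8. These values lay above the Myc WT LZ range of 3.92 to 4.78 TPM, where 0.816% of all genes lay higher without overlap.

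**Figure D3:**
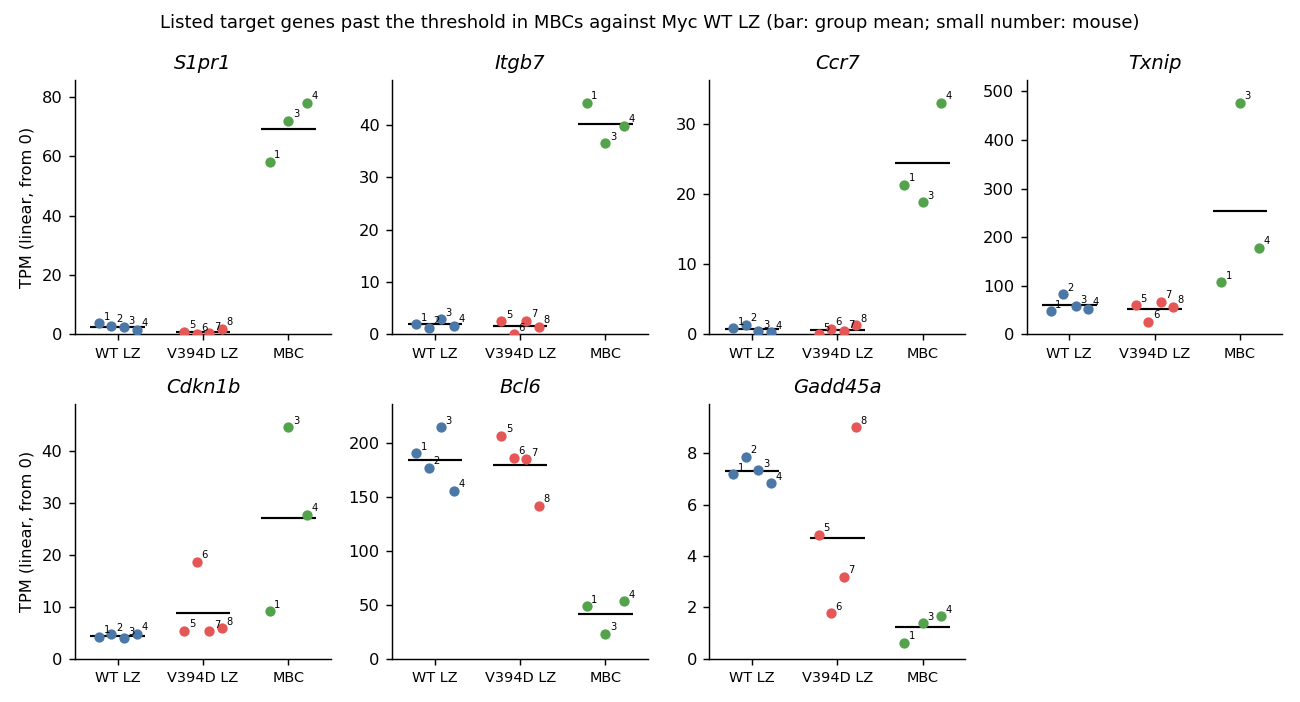
Level in TPM, on a linear axis from 0, of 7 listed target genes past the adjusted threshold in MBCs against Myc WT LZ, with a point for each library numbered by mouse and a bar for the group mean. S1pr1, Itgb7 and Ccr7 lie near 0 in all 8 LZ libraries, and Bcl6 lies between 142 and 215 TPM in LZ and between 23.2 and 53.4 TPM in MBC libraries.

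Upstream of FOXO, 4 of 19 tested genes of the PI3K and AKT pathway were called higher in MBCs than in Myc WT LZ and 0 lower, where 4.17% of all genes were called higher and 5.04% lower. Among them were the regulatory subunit genes Pik3r5 (3.63 ± 0.53, adjusted p = 0.00574) and Pik3r1 (1.23 ± 0.26, adjusted p = 0.024) and the kinase gene Akt2 (1.77 ± 0.42, adjusted p = 0.0331). These genes encode proteins that transmit the signal, and the negative regulator gene Inpp5d (0.82, adjusted p = 0.121) was not called. Akt2 was at 38.85, 124 and 58.5 TPM in MBCs of mice 1, 3 and 4, highest in the globin-rich library of mouse 3. Pik3r1 was also highest there (106 TPM), and Pik3r5 was highest in the MBC library of mouse 1 (44.6 TPM). When MBCs were compared with Myc V394D LZ, 3 of 19 tested genes were called higher, Pik3r5 and Pik3r1 among them, and 0 lower, where the shares of all genes were 2.52% and 1.36%. RNA levels of these genes hold no measure of the activity of the pathway.

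The 15 deadenylase genes of CCR4-NOT and PAN, the partners of BTG and TOB proteins, gave 0 calls by limma in each comparison. At an unadjusted p under 0.05, 2 were lower in MBCs than in Myc WT LZ, 2 were higher in MBCs than in Myc V394D LZ and 2 were lower in Myc V394D than in Myc WT LZ. The shares of all genes were 15.8%, 12.3% and 15.7%, near these counts. Their median differences were -0.11, 0.00 and -0.31, against -0.14, 0.16 and -0.31 for all genes.

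Among 9 tested genes of other lymphocyte quiescence regulators, Rb1 (2.31 ± 0.33, adjusted p = 0.00562), Foxp1 (1.79 ± 0.25, adjusted p = 0.00526) and Cdkn1b were called higher in MBCs than in Myc WT LZ. The other 6 were not called, and the list median was 0.89 against -0.14 for all genes. Of all genes, 4.17% were called higher and 5.04% lower. RB1 restrains E2F factors, and FOXP1 is a forkhead factor that is lowered in GC B cells. Rb1 (2.15) and Foxp1 (1.45) were also called against Myc V394D LZ (adjusted p = 0.0175 and 0.0208). In that comparison 7 of the 9 were not called, with a list median of 1.23 against 0.16 for all genes. Of all genes, 2.52% were called higher there and 1.36% lower. The proliferation list, read as the counterpart of quiescence, had 13 of 16 genes called lower in MBCs than in Myc WT LZ, with a median of -2.12, where 5.04% of all genes were called lower. Against Myc V394D LZ it had 4 of 16, with a median of -1.72, where 1.36% of all genes were called lower. Birc5 (-3.89), Ccnb2 (-3.56), Cdk1 (-3.47) and Rrm2 (-2.97), genes of mitosis and nucleotide supply, had the largest differences against Myc WT LZ, with adjusted p from 0.0217 to 0.0358. Between genotypes 0 of the 16 were called by limma and 6 were lower at an unadjusted p under 0.05, with a median of -0.58 against -0.31 for all genes. Of all genes, 15.7% (2020) were lower at that p, and 809 when TPM were rescaled by median ratios.

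**Figure D4:**
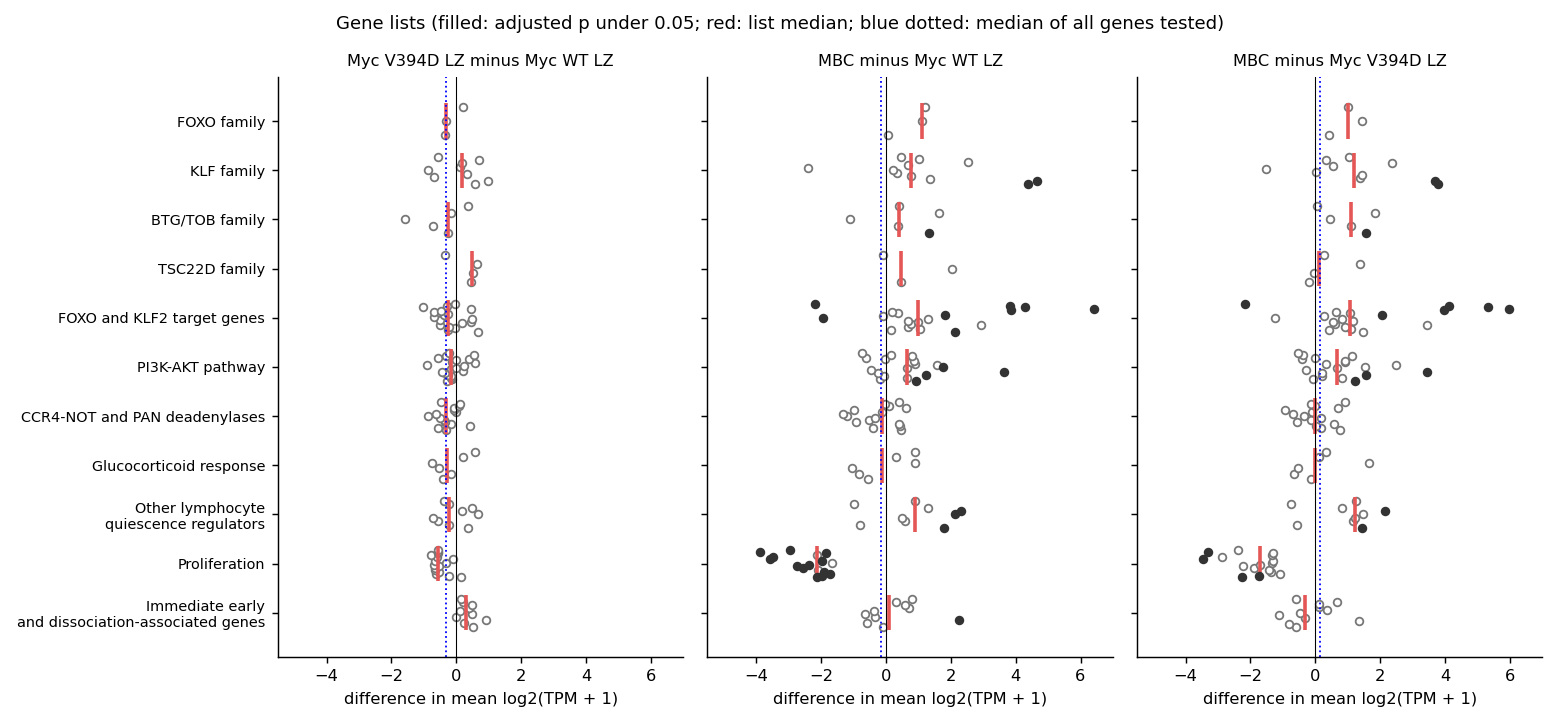
Difference in mean log2(TPM + 1) of each tested gene of the 11 lists in the 3 comparisons, with filled points for an adjusted p under 0.05, a red bar for the list median and a blue dotted line for the median of all genes tested. In the comparisons with MBCs, filled points lie to the right for KLF and BTG/TOB genes, PI3K and AKT genes, quiescence regulators and 1 immediate early gene, to the left for proliferation genes and on both sides for target genes, and no point is filled between genotypes.

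Klf2, Klf6 and Btg2 can be induced while tissue is dissociated, and a list of 14 immediate early and dissociation-associated genes was read beside them. In MBCs against Myc WT LZ, 1 of 10 tested genes was called higher, Jun (2.24 ± 0.40, adjusted p = 0.0129), and 0 lower, with 5 above 0 and 5 below and a list median of 0.11. At an unadjusted p under 0.05 there were 2 higher, Jun and Zfp36 (0.80, adjusted p = 0.056), where 11.3% of all genes were higher at that p and 4.17% were called higher. In MBCs against Myc V394D LZ limma called 0 of 11, with 1 higher at an unadjusted p under 0.05, against 12.3% of all genes, and a median of -0.32. Between genotypes limma called 0 of 10, with Jun higher at an unadjusted p under 0.05 (0.90, adjusted p = 0.242), against 1.24% of all genes, and 9 of the 10 lay above 0, with a list median of 0.31 (0.61 relative to all genes). The part of dissociation in the values of Klf2, Klf6 and Btg2 was not tested.

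Markers of other cells also moved with the MBC libraries. The 4 naive follicular B cell markers summed to 936 to 1058 TPM in MBCs and 289 to 402 TPM in LZ libraries, and Ighd and Fcer2a were called higher in both comparisons with MBCs, although the MBC gate excluded cells with surface IgD. The 7 myeloid markers summed to 36.4, 59.6 and 184 TPM in MBCs of mice 1, 3 and 4 and to 7.69 to 18.7 TPM in LZ libraries, with Csf1r at 5.89 to 16.4 TPM and Itgam at 3.84 to 9.18 TPM in MBCs, against 0.00 to 0.71 and 0.00 to 0.21 TPM in LZ libraries, and S100a8 and S100a9 at 0 in all 3 MBC libraries. The 8 T cell markers summed to 0.19 to 32.0 TPM in MBCs and 28.3 to 68.5 TPM in LZ libraries, and platelet markers were at 0 in MBCs. Most of the T cell sum in LZ libraries was Lck, at 24.1 to 66.5 TPM, with Cd3d at most 0.73 and Cd3e at most 6.48 TPM there. The 6 plasma cell markers summed to 193 to 402 TPM in MBCs, 229 to 381 TPM in Myc WT LZ and 134 to 221 TPM in Myc V394D LZ, and the 4 NK cell markers to at most 6.99 TPM in any library. Of the plasma cell markers, Jchain was at 67.1 to 280 TPM over all libraries, Sdc1 at most 6.05 TPM and Tnfrsf17 at 0. The part of naive B cells and of myeloid cells in the differences of Klf2, Klf3 and Btg1 was not tested. In these bulk samples a larger share of cells with a gene and more of its RNA per cell cannot be told apart.

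The genes with the most similar pattern were sought for 1 gene of each family, by Pearson's r of log2(TPM + 1) over the 11 libraries among the 9221 other genes that averaged 5 TPM or more. For Klf2 they were Vim (r = 0.986), Ddx58 (0.976) and Prrc2c (0.973), and for Btg1 they included the antisense gene Gimap1os (0.980) and Sla (0.975). These values describe mostly the step from LZ to MBC libraries. Within the 8 LZ libraries alone the r with Klf2 was 0.922 for Vim, 0.718 for Ddx58 and 0.752 for Prrc2c, and that with Btg1 was 0.930 for Gimap1os and 0.713 for Sla. Foxo1, which showed no such step, was most like Cul3 (0.959), Txndc5 (0.959) and Hspa4 (0.956), and within LZ libraries the r of these was 0.985, 0.957 and 0.964. Tsc22d3 was most like Trak1 (0.954), Mbnl2 (0.932) and Mfsd14a (0.929), with 0.790, 0.787 and 0.856 within LZ libraries. All points share their library and its composition, and the values are given as a description.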

How the data were processed

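The authors aligned the reads with STAR 2.5.2a and quantified genes with RSEM 1.3.0 on GRCm38, per the labels, and deposited TPM of all 11 libraries in 1 table, rounded to 2 decimals. TPM hold no depth, so no counting error can be given and the precision rests on the spread between mice. DESeq2 1.18.1, named in the submitters' processing notes, needs counts and was not used here.

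The 10 genes and the gene lists were chosen with earlier results of these data known. Symbols and positions came from GENCODE M21 (48349 of 48795 genes named) and promoters from RefSeq. The log2(TPM + 1) values were fitted with limma 3.58.1 (R 4.3.3), using eBayes with its trend option. Each fit held just the groups that were compared and left out genes averaging under 1 TPM across them. The fit was tested on simulated data. Differences are on that scale, which understates the change of low genes. Each of the 10 genes also had an exact permutation test over 70 or 35 groupings (Python 3.11.15, numpy 2.4.6). Mice 1, 3 and 4 gave both an LZ and an MBC library, so the mouse pairs them, although the deviations from the group means correlated by 0.0047, 0.0017 and -0.035. Each of the 10 genes is named. Of each list, the genes past the threshold are named, up to 4 per direction by size. Some genes that these rules give are not reported here. Txnip, Zfp36 and Inpp5d, single markers of cell types, and genes named as not called, were added after their values were seen. Doses of the immunization differ between the labels and the methods and are not given.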

Additional observations from a re-analysis of the deposited data

Results flagged for a closer look

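In 20 groups of 4 libraries tested for a value far from the rest by Dixon's criterion, 2 stood apart, where chance gives about 1 in 20. Klf13 in LZ B cells of Myc WT mouse 1 reached 38.5 TPM while the other 3 mice had 12.7 to 15.1 TPM, and the MBC library of that mouse also had the highest Klf13 value of its group. Btg2 in Myc V394D mouse 6 reached 31.3 TPM while the other 3 had 19.0 to 20.8 TPM, still below all Myc WT values.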

How the results depend on the processing

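The count of the 10 genes called was 0 between genotypes in the reported fit and in all alternatives, although with a mean of at least 5 TPM as the filter just 7 of the 10 were tested there, without Foxo3, Klf2 and Klf3. It was 0 to 0 when single libraries were left out. Against Myc WT LZ it was 3 and ranged from 2 to 5: 5 with quantile normalization, and 3 to 5 with 1 library left out, where 5 came without the MBC library of mouse 3. With quantile normalization 720 genes were called higher and 985 lower over all genes, against 552 and 667 in the reported fit. Without immunoglobulin and mitochondrial genes the count of the 10 genes was 4, with 837 genes called higher and 555 lower over all genes. With the mouse as a replicate block, in a fit of mice 1, 3 and 4 alone, it was 2, since Btg1 was not called (1.41, adjusted p = 0.0808). The same libraries without the block gave a count of 3, with 1.56% of all genes called higher against 0.989% with it. Against Myc V394D LZ it was 3 and ranged from 2 to 6, with 6 when all 3 groups were in 1 fit. Btg1 was also not called against Myc WT LZ with array weights (adjusted p = 0.0656), Klf6 was called there without immunoglobulin and mitochondrial genes (adjusted p = 0.0497), and the range of adjusted p over the alternatives was 0.0038 to 0.0808 for Btg1 and 0.0497 to 0.472 for Klf6. Over all genes, calls ranged with 1 library left out from 0 to 12 higher and 0 to 242 lower between genotypes, from 205 to 924 and 137 to 1830 against Myc WT LZ, and from 141 to 335 and 62 to 396 against Myc V394D LZ, with the most calls without Myc V394D mouse 5 in the first and without the MBC library of mouse 4 in the others. Klf2 and Klf3 were called in every alternative of both comparisons with MBCs. The median of the 10 genes ranged from -0.30 to 0.11 between genotypes, from 0.99 to 1.46 against Myc WT LZ and from 1.13 to 1.63 against Myc V394D LZ, library omissions included. Signs turned only for genes that were not called. Between genotypes Btg1 turned to 0.0879, 0.0253 and 0.0563 and Tob1 to 0.136, 0.0865 and 0.108 with median ratio rescaling, quantile normalization and removal of ribosomal RNA genes, and Tob1 ranged from -0.458 to 0.0417 with 1 library left out, turning without Myc V394D mouse 8. Against Myc WT LZ, Foxo1 turned to -0.12 with quantile normalization, -0.00708 without ribosomal RNA genes and ranged from -0.0149 to 0.169 with 1 library left out, turning without LZ mouse 4 or MBC mouse 1. Against Myc V394D LZ, Foxo1 turned to -0.017 with quantile normalization, and Klf13 to -0.017 with it, -0.0501 without ribosomal RNA genes, with a range of -0.344 to 0.783 with 1 library left out, turning without MBC mouse 1. The cause of these changes was not tested. TPM hold no read depth, so whether the lowest values, such as those of Klf2 and Klf3 in LZ libraries, rest on few reads is unknown.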
